A study of Mus musculus with 11 samples.

Results

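The interleukin-1 and interleukin-18 genes were followed in mouse alveolar macrophages in a model of macrophage activation syndrome (MAS), an inflammatory state in which macrophages are overactivated. The group holds 9 genes chosen by symbol: the cytokine genes Il1a, Il1b, Il1f9 and Il18, the inhibitor and decoy genes Il1rn, Il18bp and Il1r2, and Casp1 and Nlrp3 of the machinery that activates the cytokines. All 9 were on the array with 1 transcript cluster each, out of 19505 gene symbols, and all 9 were among the 12143 genes tested. RNA from 11 mice was measured on 11 Affymetrix arrays. All groups were of female mice of the C57BL/6J strain, 6 weeks old when bought, and all had 5 injections over 10 days. Controls (n = 4) were injected with PBS, with lavage on day 10. Mice of the acute group (n = 3) were injected with CpG 1826, an oligonucleotide sensed by the DNA receptor Tlr9, also with lavage on day 10. Mice of the resolution group (n = 4) had the same CpG course, with lavage on day 30. Cells were taken by bronchoalveolar lavage and purified by adherence, with no sort. No group given PBS was lavaged on day 30, so the later day and the recovery from CpG cannot be told apart in any comparison with the resolution group.

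Interleukin-1 alpha and beta act through one receptor, whose signal runs over Myd88 and Irak proteins to NF-kB. Interleukin-1 beta and interleukin-18 are made as inactive precursors and are cut by caspase-1 after an inflammasome, such as the one built on Nlrp3, has assembled, so an mRNA level does not give the amount of active cytokine. The pathway is held in check by a receptor antagonist (Il1rn), a decoy receptor (Il1r2) and an interleukin-18 binding protein (Il18bp), and free interleukin-18 is a known feature of MAS.

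Markers of the labelled cell type were present. All 15 alveolar macrophage markers on the array, among them Siglecf, Marco and Pparg, were above background, and their summed level spanned 19.27 to 19.41 in control, 19.20 to 19.30 in acute and 19.19 to 19.25 in resolution arrays. Single markers moved within that sum. In resolution against control 4 of 15 rose and 3 fell, beside 9.60% of all genes higher and 9.0% lower. Of these markers, the lipid-binding Fabp4 (16.68 to 15.49) and Fabp5 (15.75 to 14.95) fell, and Cidec (10.28 to 11.62) and Pparg (13.03 to 13.78) rose. Levels throughout are log2(intensity + 1), and background is the 90th percentile of the 23 antigenomic probe sets of each array, 6.12 to 6.24. The B cell markers on the array (5 of 5) and 8 of 9 natural killer cell markers were below background on all 11 arrays. Genes above background numbered 8731 to 8952 per array, and arrays correlated at 0.988 to 0.995 within groups and 0.975 to 0.993 between them. Acute replicate 1 stood apart in Alas2, a haem synthesis enzyme of red cell precursors and the one red cell marker measured. Alas2 read 15.15 there and 5.54 to 9.26 on the other 10 arrays. Control replicate 4 stood apart in neutrophil genes, given beside Il1f9. A level depends on the probes of its cluster, so levels of different genes are not compared here.

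The start-site regions of the 4 members that passed the test in any comparison are shown because, within one pathway, 1 of these genes rose and 3 fell. RefSeq windows of 300 bases, 250 before and 50 after a gene's start, were found for 9 of 9 members, 12 windows in all (GRCm38.p6). Capitals mark matches, on either strand, to any of 5 motifs: the NF-kB consensus, found in 8.46% of the 32851 mouse windows of this length, AP-1 (TGANTCA, 7.81%), C/EBP (TTNNGNAA, 40.7%), PU.1 (GAGGAAG, 13.6%) and the TATA box (TATAAA, 13.6%). A C/EBP match and a PU.1 match can overlap. Il1rn had 3 windows, of which the one that reaches furthest downstream is printed, and both windows of Nlrp3 are printed. Of the Il1rn windows not printed, the most upstream held an AP-1 match (TGAGTCA, from base -141 to -135 of its own start) and the middle one overlaps the printed window.
Il1b, chr2:129371090-129371389, minus strand: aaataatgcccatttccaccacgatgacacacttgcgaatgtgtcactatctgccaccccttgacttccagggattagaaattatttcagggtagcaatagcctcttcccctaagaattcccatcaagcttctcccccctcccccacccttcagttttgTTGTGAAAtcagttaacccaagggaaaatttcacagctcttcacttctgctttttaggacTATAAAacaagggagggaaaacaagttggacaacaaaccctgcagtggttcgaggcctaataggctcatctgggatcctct
Il1f9, chr2:24186226-24186525, plus strand: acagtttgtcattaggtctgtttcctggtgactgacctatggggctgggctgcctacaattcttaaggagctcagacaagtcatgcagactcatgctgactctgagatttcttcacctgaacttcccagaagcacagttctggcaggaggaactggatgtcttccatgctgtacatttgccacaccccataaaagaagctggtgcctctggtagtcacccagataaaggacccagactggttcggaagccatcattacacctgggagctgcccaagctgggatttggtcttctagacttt
Il1rn, downstream window, chr2:24345121-24345420, plus strand: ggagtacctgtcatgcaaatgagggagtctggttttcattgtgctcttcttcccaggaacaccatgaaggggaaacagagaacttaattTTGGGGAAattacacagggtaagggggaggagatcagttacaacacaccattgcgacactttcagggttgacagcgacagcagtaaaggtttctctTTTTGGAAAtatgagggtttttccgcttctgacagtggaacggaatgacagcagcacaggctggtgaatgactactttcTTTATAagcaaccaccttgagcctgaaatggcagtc
Nlrp3, first window, chr11:59542436-59542735, plus strand: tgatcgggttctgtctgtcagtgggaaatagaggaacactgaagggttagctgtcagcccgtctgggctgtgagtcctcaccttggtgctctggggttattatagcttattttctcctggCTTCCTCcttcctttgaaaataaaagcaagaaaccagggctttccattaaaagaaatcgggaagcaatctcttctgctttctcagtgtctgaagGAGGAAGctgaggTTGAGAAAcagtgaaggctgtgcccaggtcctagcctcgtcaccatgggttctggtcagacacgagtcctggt
Nlrp3, second window, chr11:59541319-59541618, plus strand: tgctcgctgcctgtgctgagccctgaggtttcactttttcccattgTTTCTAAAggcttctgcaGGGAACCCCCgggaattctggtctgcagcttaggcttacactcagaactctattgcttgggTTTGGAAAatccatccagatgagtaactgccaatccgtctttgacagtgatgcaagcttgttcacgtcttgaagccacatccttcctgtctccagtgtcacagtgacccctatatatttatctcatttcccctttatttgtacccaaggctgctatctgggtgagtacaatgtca
The window of Il1b held a C/EBP match from base -91 to -84 and a TATA match from -31 to -26, counted from the start. The NF-kB consensus matched in 1 of the 5 printed windows, the second of Nlrp3, from base -186 to -177. The first window of Nlrp3 held PU.1 matches at -130 to -124 and -36 to -30. The window of Il1f9 held none of the 5 motifs, which says only that these letters are not in this stretch. Il1a and Il1b are neighbours on chromosome 2, and Il1f9 and Il1rn lie in a second group of interleukin-1 family genes on that chromosome, with Il1f6, Il1f5 and Il1f10 between them. Il1b rose in resolution arrays and its neighbour Il1a did not pass the test.

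Across the members, 0 of 9 passed the test against control on day 10 of CpG and 4 of 9 passed it on day 30. Differences were tested with limma, and a gene was called at a Benjamini-Hochberg adjusted p under 0.05, adjusted across all 12143 genes. Acute against control gave 0 members higher and 0 lower, beside 0.239% of all genes called (29 genes, 0.189% higher and 0.0494% lower). At an unadjusted p under 0.05, 2 members (Il1b and Il1f9) and 1099 genes passed. With fewer genes called, the adjusted threshold was stricter in acute than in resolution against control. For Il1b the unadjusted limma p was 0.00152 in acute and 0.00154 in resolution against control, so the 2 counts do not date the changes. The 29 genes became 13 without control replicate 1, 18 without control replicate 2, 6 without acute replicate 2 and 10 without acute replicate 3. Quantile normalization called 29 genes higher and 3 lower. Resolution against control gave 1 member higher (Il1b) and 3 lower (Il1f9, Il1rn, Nlrp3), beside 18.6% of all genes called (9.60% higher and 9.0% lower). Resolution against acute gave 0 higher and 2 lower (Il1rn, Nlrp3), beside 14.5% of all genes called (7.77% higher, 943 genes, and 6.69% lower, 812 genes). Without acute replicate 1 this comparison called 1069 genes. With the arrays scaled to a common median 673 genes were higher and 989 lower, and with quantile normalization 685 and 1151. Every array of one group lay apart from every array of the other for 2 members in acute against control (10.1% of all genes), 5 in resolution against control (22.7%) and 5 in resolution against acute (26.3%). The median member difference was 0.07, -0.28 and -0.32 in the 3 comparisons in this order, against 0.00 for all genes in each. The comparisons share arrays, so they are not independent of each other.

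**Figure D1:**
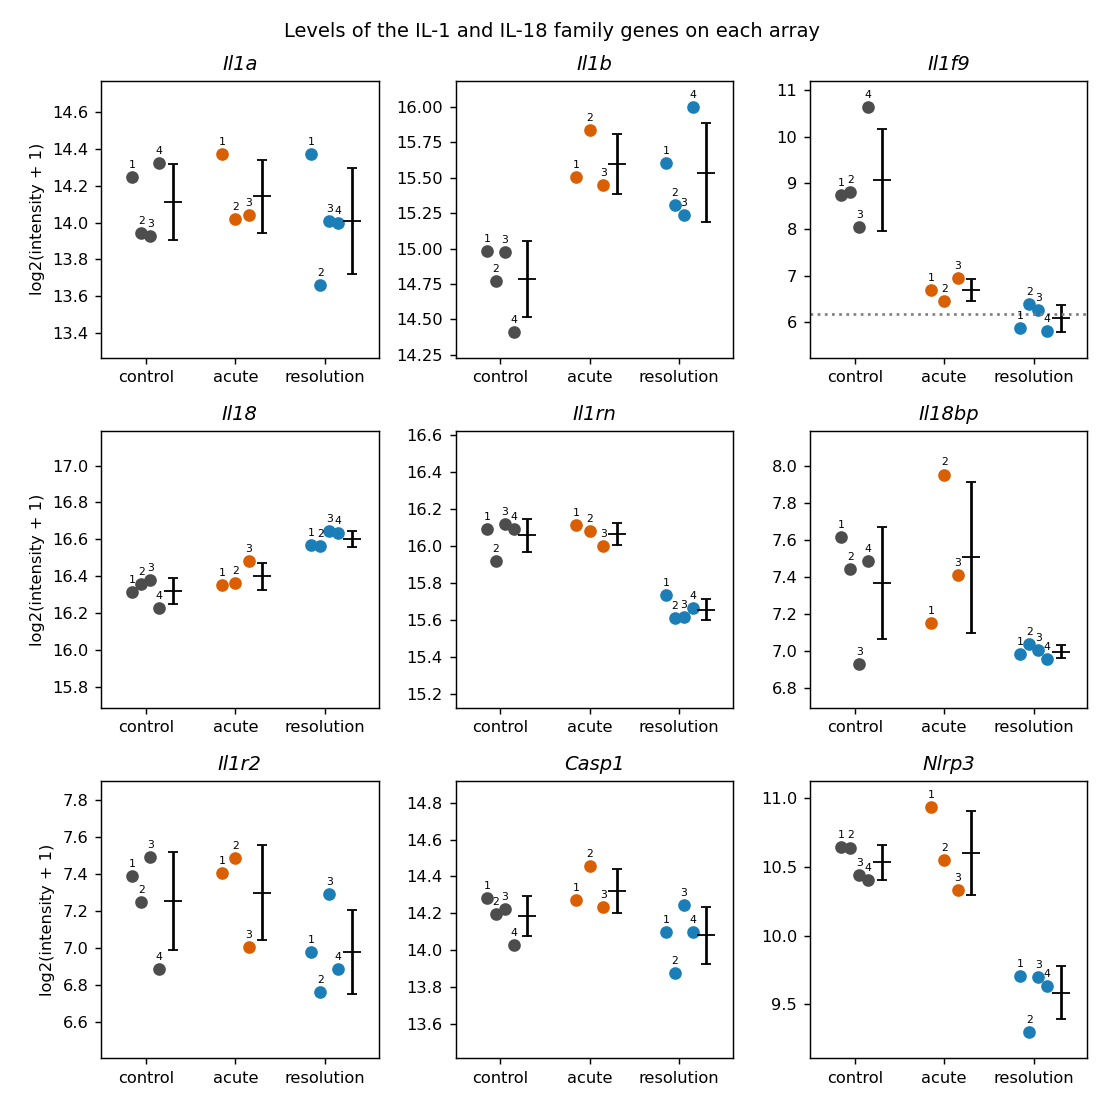
Levels of the 9 genes, log2(intensity + 1), on each of 11 arrays by group, with replicate numbers, group means and SD (bars); the dotted line in the Il1f9 panel is the mean background. The resolution arrays of Nlrp3 and Il1rn lie below all other arrays, those of Il1b lie above all control arrays, and the scale of the vertical axis differs between panels.

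Among the cytokines, Il1b lay above control in both CpG groups and passed the test at day 30. Il1b, which encodes interleukin-1 beta, read 14.98, 14.77, 14.98 and 14.41 in control replicates 1 to 4. It read 15.51, 15.84 and 15.45 in the acute arrays and 15.60, 15.31, 15.23 and 15.997 in the resolution arrays. Every array of either CpG group was above every control array. The resolution mean was 1.68-fold the control mean (difference 0.75 ± 0.19 SE, adjusted p = 0.0137). The acute mean was 1.75-fold the control mean (0.81 ± 0.20, 95% interval 0.37 to 1.24), which did not pass the adjusted threshold (adjusted p = 0.186). Without acute replicate 1 that difference was 0.85 (adjusted p = 0.275). Between day 10 and day 30 of the CpG course the difference was -0.06 ± 0.20 (95% interval -0.50 to 0.37, adjusted p = 0.881), and its sign turned without acute replicate 2 (0.06). In bulk RNA, fewer cells of a type and less RNA per cell cannot be told apart, here and for every gene below.

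Il1a, the gene of interleukin-1 alpha, did not pass the test in any comparison. It read 14.25, 13.94, 13.93 and 14.33 in control, 14.37, 14.02 and 14.04 in acute and 14.37, 13.66, 14.01 and 14.00 in resolution arrays. The 3 groups overlapped throughout. The resolution minus control difference was -0.10 ± 0.16 (95% interval -0.45 to 0.25, adjusted p = 0.716) and acute minus control was 0.03 ± 0.17 (-0.35 to 0.41). The difference between Il1a and Il1b in response was not tested.

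Il1f9, the gene of interleukin-36 gamma, had the largest member difference in resolution against control. Control arrays read 8.74, 8.82, 8.05 and 10.64, the last from control replicate 4. Acute arrays read 6.69, 6.47 and 6.94, and resolution arrays 5.87, 6.39, 6.27 and 5.81, of which 2 of 4 lay above background. Control arrays were thus above all others, acute arrays lay between, and resolution arrays lay at background. Resolution was at least 7.32-fold lower than control (difference -2.98 ± 0.41, adjusted p = 0.000303), counted from the control mean to the background. The acute mean was 5.14-fold lower than the control mean (-2.36 ± 0.44), just short of the threshold (adjusted p = 0.0525). Without acute replicate 1 it was -2.36 (adjusted p = 0.168).

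Control replicate 4 widened the control spread of Il1f9, and removing it made the acute fall pass the test. Without it the control mean was 8.54 ± 0.42 (SD, n = 3) in place of 9.06 ± 1.10 (n = 4), the acute difference was -1.84 (adjusted p = 0.00454) and the resolution difference was -2.45 (adjusted p = 2.1e-05). These came to 3.57-fold lower in acute and at least 5.09-fold lower in resolution arrays. Without control replicate 3, the lowest control, the acute difference was -2.70 (adjusted p = 0.0264). Resolution against acute was -0.61 ± 0.44 (95% interval -1.58 to 0.35, adjusted p = 0.401), with arrays that did not overlap.

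Control replicate 4 was also the array with the most signal from neutrophil genes. Among controls it had the highest summed level of lung epithelium markers as well, at 14.42 against 13.57 to 13.97. Whether either signal bears on its Il1f9 level was not tested. S100a8, a calcium-binding protein gene abundant in neutrophils, read 12.16 there against 8.94, 9.81 and 8.55 in the other control arrays. Retnlg read 7.11 there and was below background on the other 10 arrays. The summed level of the 15 neutrophil markers on the array was 13.4 in control replicate 4 and 11.8 to 12.4 in the other controls, 12.3 to 12.5 in acute and 12.2 to 13.001 in resolution arrays. Outside control replicate 4 the brightest gene of this sum was Mmp8. Its mean was 11.42 in control, 11.53 in acute and 11.99 in resolution arrays. The mean log2 level of the list was 6.07 to 6.83 in control, 6.22 to 6.33 in acute and 5.97 to 6.17 in resolution arrays. Of these markers, Mmp9, Camp, Ngp, Cd177, Elane and Fcnb were below background on all 11 arrays. Alveolar macrophage markers went both ways in control replicate 4. Siglecf was lowest there among controls, at 14.51 against 15.02 to 15.09, and Marco was highest, at 14.39 against 13.55 to 13.81. The summed level of the alveolar macrophage markers was also highest there among controls, at 19.41 against 19.27 to 19.31. Of the 8 neutrophil genes tested, 1 rose (Csf3r) and 2 fell (Cxcr2 and Ltf) in resolution against control. In that comparison 9.60% of all genes were called higher and 9.0% lower. Without control replicate 4 Il1f9 was still lower than control in both CpG groups, by the values given above.

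Il18 moved by a small amount that did not pass the test. Il18 encodes the precursor of interleukin-18, which drives interferon-gamma production by lymphocytes. It read 16.32, 16.36, 16.38 and 16.23 in control, 16.35, 16.36 and 16.48 in acute and 16.57, 16.56, 16.65 and 16.64 in resolution arrays. All resolution arrays lay above all arrays of both other groups. Resolution minus control was 0.28 ± 0.10 (95% interval 0.08 to 0.49, adjusted p = 0.0576), a ratio of 1.22. Over the alternative settings that adjusted p ranged from 0.00122 to 0.148, and it passed in 5 of 21. Resolution minus acute was 0.20 ± 0.10 (adjusted p = 0.214) and acute minus control 0.08 ± 0.10 (95% interval -0.15 to 0.30).

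**Figure D2:**
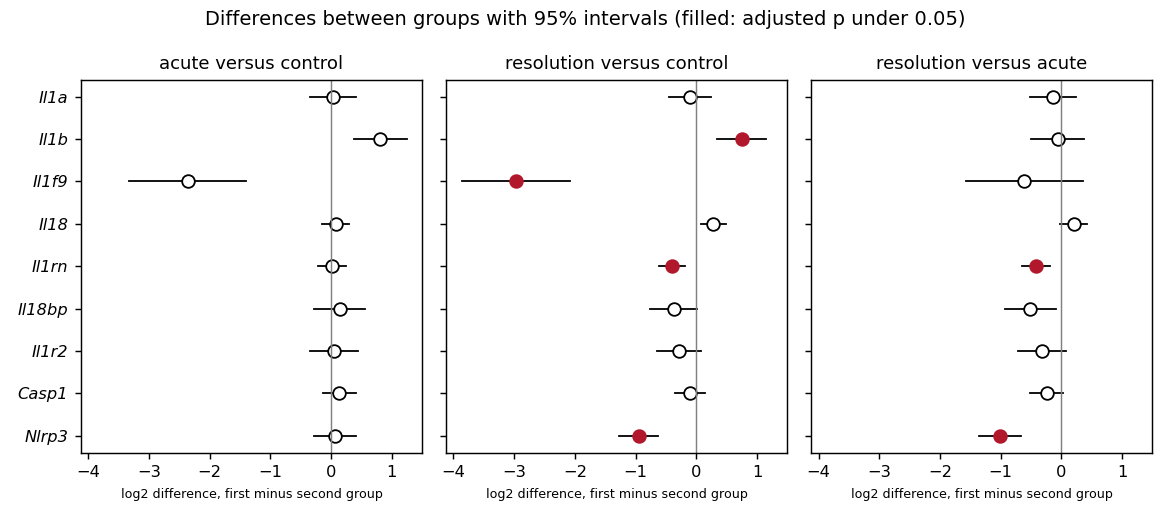
Differences between groups on the log2(intensity + 1) scale, first named minus second named group, with 95% intervals from limma for each of the 9 genes; filled points passed an adjusted p of 0.05. No point is filled for acute versus control, 4 are filled for resolution versus control and 2 for resolution versus acute.

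The remaining family ligands gave little signal. Il1f5, Il1f8, Il1f10 and Il33 were below background on all 11 arrays. Il1f6, which encodes interleukin-36 alpha, was above background on 1 of 4 control, 2 of 3 acute and 1 of 4 resolution arrays and was the one of these 5 genes tested. Its acute difference was 0.29 ± 0.19 (adjusted p = 0.679) and its resolution difference 0.03 ± 0.17 (adjusted p = 0.932).

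Of the inhibitors, Il1rn fell at day 30. Il1rn encodes the interleukin-1 receptor antagonist, which occupies the receptor without signalling. Control arrays read 16.09, 15.92, 16.12 and 16.09, acute arrays 16.12, 16.08 and 16.002, and resolution arrays 15.73, 15.61, 15.61 and 15.66. The resolution arrays lay below all 7 others. Resolution was 1.32-fold lower than control (-0.40 ± 0.10, adjusted p = 0.0123) and 1.33-fold lower than acute (-0.41 ± 0.11, adjusted p = 0.0212). The second of these calls rested on single libraries: the adjusted p was 0.0790 without acute replicate 1, the array with high Alas2, 0.0647 without acute replicate 2 and 0.0542 without resolution replicate 3. Acute minus control was 0.01 ± 0.11 (95% interval -0.22 to 0.24).

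The cytokine and its antagonist thus moved in opposite directions by day 30, a pairing picked after the values were seen and given as a description. Il1b minus Il1rn, set to a mean of 0 in control, ranged from -0.41 to 0.16 in control, 0.66 to 1.03 in acute and 0.89 to 1.61 in resolution arrays. The acute shift came from the level of Il1b, and the resolution shift from both genes. Il18 minus Il18bp was likewise set to a mean of 0 in control, with an SD of 0.35 (n = 4). Its means were -0.06 ± 0.43 (SD, n = 3) in acute and 0.66 ± 0.07 (n = 4) in resolution arrays. Control replicate 3 read 0.50 and the lowest resolution array 0.57, and neither Il18 nor Il18bp passed the test.

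Il18bp and Il1r2, the binding protein of interleukin-18 and the decoy receptor of interleukin-1, read low and did not pass in any comparison. Il18bp read 7.62, 7.44, 6.93 and 7.49 in control, 7.15, 7.96 and 7.41 in acute and 6.98, 7.04, 7.01 and 6.95 in resolution arrays. The resolution arrays were alike and lay below all acute arrays, and control replicate 3 was as low as they were. Resolution minus acute was -0.51 ± 0.20 (95% interval -0.94 to -0.09, adjusted p = 0.103), and resolution minus control was -0.37 ± 0.18 (adjusted p = 0.180). Il1r2 read 7.39, 7.25, 7.50 and 6.89 in control, 7.41, 7.49 and 7.01 in acute and 6.98, 6.76, 7.30 and 6.89 in resolution arrays, with overlap between all groups. Its resolution minus control difference was -0.28 ± 0.17 (95% interval -0.64 to 0.09, adjusted p = 0.290). Its acute difference of 0.04 had no stable sign, being -0.08 without control replicate 4.

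In the activating machinery, Nlrp3 fell and Casp1 did not pass the test. Nlrp3, the sensor whose expression is known to limit assembly of its inflammasome, read 10.65, 10.64, 10.44 and 10.41 in control and 10.93, 10.55 and 10.33 in acute arrays. Resolution arrays read 9.71, 9.30, 9.70 and 9.64, all below the other 7 arrays. Resolution was 1.93-fold lower than control (-0.95 ± 0.15, adjusted p = 0.000751) and 2.03-fold lower than acute (-1.02 ± 0.16, adjusted p = 0.00111). Both calls held in 21 of 21 alternative settings. Without acute replicate 1 the difference from acute was -0.85 (adjusted p = 0.00593). Acute minus control was 0.07 ± 0.16 (95% interval -0.28 to 0.42), which turned to -0.10 without acute replicate 1.

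Casp1, the protease that matures both cytokines, read 14.28, 14.20, 14.22 and 14.03 in control, 14.27, 14.46 and 14.24 in acute and 14.10, 13.88, 14.25 and 14.10 in resolution arrays. The groups overlapped in every comparison. Differences were 0.14 ± 0.12 for acute minus control (adjusted p = 0.785), -0.10 ± 0.12 for resolution minus control (95% interval -0.35 to 0.15, adjusted p = 0.590) and -0.24 ± 0.12 for resolution minus acute (adjusted p = 0.226).

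The other genes of the pathway were taken from lists by role and counted in the same test. In acute against control, 0 of 58 genes of these lists passed in limma, beside 0.239% of all genes, and 6 had an unadjusted p under 0.05. The smallest p in each list belonged to Casp4 (0.70 ± 0.17, adjusted p = 0.162), a caspase of the non-canonical inflammasome, Tollip (-0.43 ± 0.11, adjusted p = 0.232), Il18rap (-0.60 ± 0.19, adjusted p = 0.325), Trim30a (0.51 ± 0.17, adjusted p = 0.358), Rel (0.38 ± 0.14, adjusted p = 0.443) and Brcc3 (0.25 ± 0.12, adjusted p = 0.566). Casp4 lies next to Casp1 in the genome and is a close relative, and whether their clusters share signal was not tested.

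Among receptors, 1 of 6 tested rose and 1 fell in resolution against control, beside 9.60% of all genes higher and 9.0% lower. Il1rl2, the receptor of the interleukin-36 cytokines, rose at day 30 while Il1f9, the gene of one of its ligands, fell. Il1rl2 read 8.70, 8.84, 8.70 and 8.86 in control, 9.09, 9.12 and 9.20 in acute and 10.20, 10.49, 10.60 and 10.09 in resolution arrays. The groups stood apart in that order, with no overlap between any of them. Resolution was 2.98-fold higher than control (1.57 ± 0.13, adjusted p = 5.81e-06) and 2.32-fold higher than acute (1.21 ± 0.14, adjusted p = 0.000111). The acute difference of 0.36 ± 0.14 did not pass (adjusted p = 0.443). Il18rap, a chain of the interleukin-18 receptor, fell (-0.61 ± 0.17, adjusted p = 0.0264) from levels near background, with 4 of 4 control and 1 of 4 resolution arrays above it. Il18r1, the other chain, was below background on all 11 arrays. Il1r1, the signalling receptor of interleukin-1, was above background on 2 of 4 resolution arrays (6.50 and 6.41) and on no control or acute array, and its difference from control did not pass (adjusted p = 0.130).

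The adaptors and kinases between receptor and NF-kB moved in both directions. In resolution against control 2 of 12 rose and 1 fell, beside 9.60% of all genes higher and 9.0% lower. Peli2, a ubiquitin ligase acting on Irak proteins, was 2.53-fold higher (1.34 ± 0.22, adjusted p = 0.00112). Tab3 was 1.44-fold higher at the edge of the threshold (0.53 ± 0.17, adjusted p = 0.0499). Tollip, which binds the receptor complex and restrains it, was 1.71-fold lower (-0.77 ± 0.10, adjusted p = 0.000259). Against acute, 2 rose and 0 fell, beside 7.77% of all genes higher and 6.69% lower: Peli2 by 1.04 ± 0.24 (adjusted p = 0.0118) and Peli1 by 0.85 ± 0.26 (adjusted p = 0.0486).

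The NF-kB subunits and inhibitors moved one way in these counts. In resolution against control 0 of 12 rose and 8 fell, with a median difference of -0.92, against 9.0% of all genes called lower. Against acute 0 of 12 rose and 11 fell, with a median of -1.04, against 6.69% of all genes. Tnfaip3, the gene of the NF-kB brake A20, read 13.76 to 13.95 in control, 13.76 to 14.06 in acute and 12.26, 10.56, 11.48 and 11.60 in resolution arrays. It fell 5.32-fold from control (-2.41 ± 0.26, adjusted p = 5.67e-05). Nfkb2 fell 3.51-fold (-1.81 ± 0.15, adjusted p = 6.05e-06), Bcl3 fell 3.23-fold (-1.69 ± 0.18, adjusted p = 5.57e-05), and Nfkbie fell at least 4.05-fold, to background (-2.05 ± 0.20, adjusted p = 2.07e-05). Against acute the differences were -2.47 for Tnfaip3, -2.11 for Bcl3, -2.01 for Nfkbie and -1.77 for Nfkb2. Nfkbie, Tnfaip3 and Bcl3 restrain or modulate NF-kB, and Nfkb2 is a subunit. Il1b rose over control while these genes fell.

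**Figure D3:**
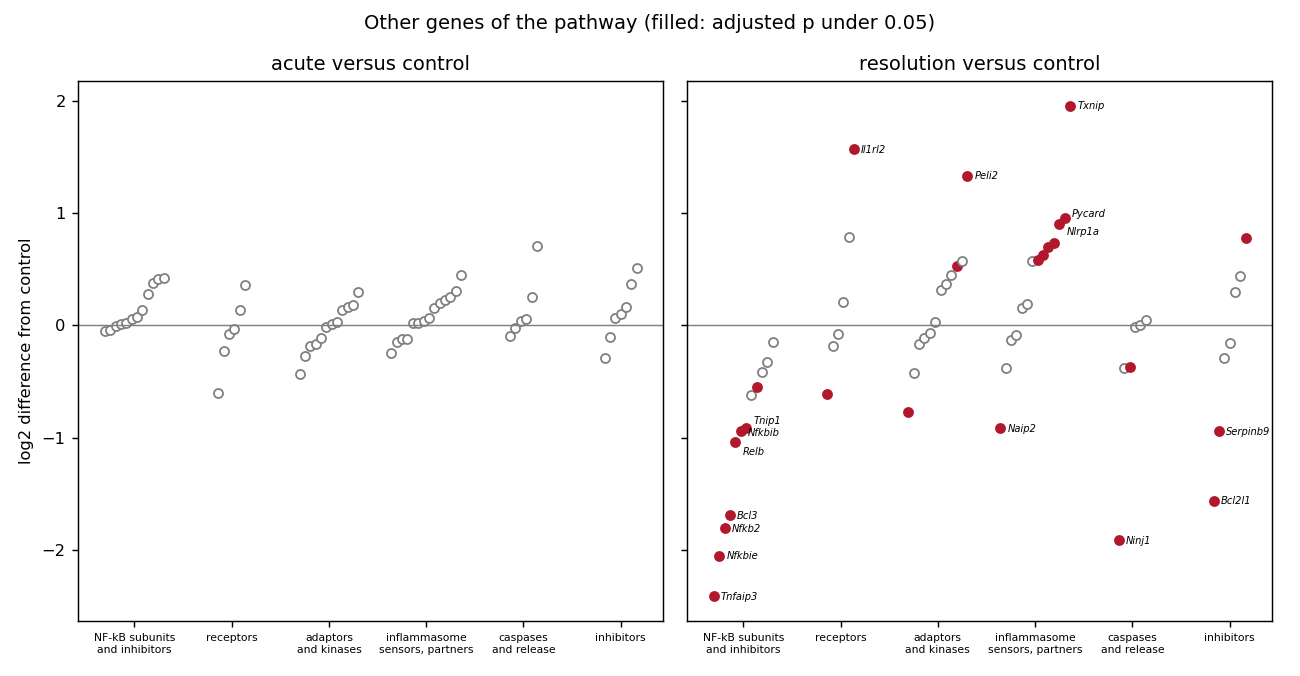
Differences from control, log2(intensity + 1), of the tested genes of 6 pathway lists, each point a gene and each list sorted by its difference; filled points passed an adjusted p of 0.05. No point is filled in acute versus control, and in resolution versus control the NF-kB list holds 8 filled points, all below 0, and the inflammasome list 7 above and 1 below.

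Several inflammasome sensors and partners rose at day 30, when Nlrp3 was lower. Apart from Nlrp3, 7 of 14 tested rose and 1 fell in resolution against control, with a median difference of 0.58, against 9.60% of all genes called higher. Txnip, a redox protein that binds Nlrp3, read 13.25, 13.14, 13.74 and 14.15 in control, 12.78, 14.33 and 14.07 in acute and 15.48, 15.47, 15.59 and 15.58 in resolution arrays. All resolution arrays were above all others, a 3.89-fold rise over control (1.96 ± 0.30, adjusted p = 0.000654). Pycard, the adaptor that joins sensors to caspase-1, rose 1.94-fold (0.96 ± 0.18, adjusted p = 0.00263), from 12.66 to 13.07 in control to 13.45 to 14.15 in resolution arrays. Nlrp1a differed by 0.91 ± 0.14 (adjusted p = 0.000706), but 1 of 4 resolution arrays and no control array was above background, so no fold is given. Naip2, a sensor subunit, was 1.89-fold lower (-0.92 ± 0.15, adjusted p = 0.00112), whereas the other genes that rose, named after their values were seen, were Naip6, Nlrp1b, Naip5 and P2rx7 with differences of 0.58 to 0.73. Naip genes, like the Nlrp1 genes, are related gene copies, so signal may be split or shared among them, which was not tested. Against acute, 6 of 14 rose and 1 fell, with Txnip (1.80), Nlrp1a (0.88), Nlrp1b (0.85) and Naip5 (0.74) the largest.

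Among caspases and release factors, 0 of 6 rose and 2 fell in resolution against control, beside 9.60% of all genes higher and 9.0% lower. Ninj1, a membrane protein that drives plasma membrane rupture in dying cells, read 13.79 to 14.15 in control, 13.98 to 14.13 in acute and 12.10, 12.66, 11.90 and 11.70 in resolution arrays. It was 3.76-fold lower than control (-1.91 ± 0.18, adjusted p = 1.81e-05) and 3.92-fold lower than acute. Ctsb, a lysosomal protease, was 1.29-fold lower than control (-0.37 ± 0.10, adjusted p = 0.0250). Against acute, 2 of 6 fell, Ninj1 and Casp4, the latter 2.12-fold (-1.08 ± 0.17, adjusted p = 0.00110). Gsdmd, the pore-forming protein, overlapped between groups, with a resolution minus control difference of 0.04 ± 0.13 (adjusted p = 0.857).

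Among inhibitors of inflammasome or caspase activity, 1 of 7 rose and 2 fell in both comparisons of the resolution group, beside 18.6% of all genes called against control and 14.5% against acute. Serpinb1a, a protease inhibitor, rose 1.72-fold over control (0.78 ± 0.10, adjusted p = 0.000241). Bcl2l1, which encodes an antiapoptotic protein, fell 2.95-fold (-1.56 ± 0.21, adjusted p = 0.000241). Serpinb9 fell from near background to below it on all 4 resolution arrays (-0.94 ± 0.18, adjusted p = 0.00299), at least 1.31-fold.

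Genes with the profile most like each changed member were sought among 11647 genes, by the root mean square difference of levels centred over the 11 arrays. For Nlrp3, whose own spread was 0.504 (SD), these were Cd274 (0.130), Prpf38b (0.158) and Gch1 (0.160). For Il1rn, with a spread of 0.205, they were Atp6v1e1 (0.0600), Fth1 (0.0717) and Rsl1d1 (0.0767). In both sets every resolution array lay below every control and acute array. Control and acute means were not level for all of these genes. From control to acute, Rsl1d1 went from 11.28 to 11.16, Prpf38b from 13.26 to 13.14 and Cd274 from 13.82 to 13.97. Il1b, with a spread of 0.447, was followed less closely by Pot1b (0.211), Akna (0.215) and Map4k1 (0.225). Il1f9, with a spread of 1.46, had nearest genes further off on this scale: Akr1b8 (0.709), Me1 (0.730) and Slc11a1 (0.777).

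**Figure D4:**
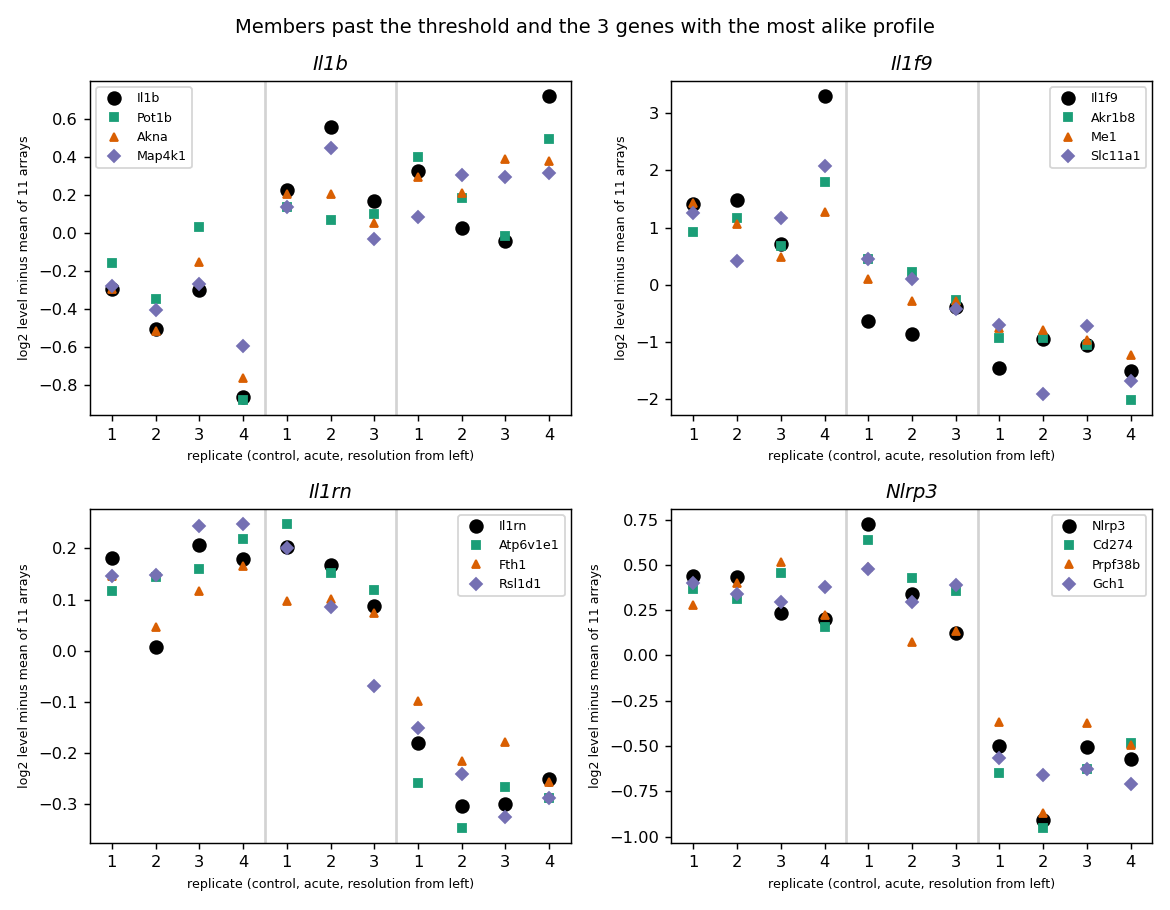
Levels centred on the mean of 11 arrays, log2(intensity + 1), for the 4 members that passed a test and the 3 genes nearest to each, by array. The points of Nlrp3 and of Il1rn lie close to those of their nearest genes, with root mean square differences of 0.130 to 0.160 and 0.0600 to 0.0767.

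Marker genes of other cells and of handling also differed between the groups, beside the member results. The summed level of 9 monocyte markers was 12.1 to 13.1 in control, 12.2 to 12.7 in acute and 11.3 to 11.9 in resolution arrays. The sum followed its brightest gene, Treml4, whose mean was 12.64 in control, 12.18 in acute and 10.92 in resolution arrays. The mean log2 level of the list overlapped, at 6.26 to 6.53 in control and 6.21 to 6.37 in resolution arrays. Ly6c2, Cx3cr1, F13a1 and Ms4a4c were below background on all 11 arrays. Of the 6 tested, 1 rose (Ccr2, below background in all control arrays) and 1 fell (Treml4) in resolution against control. The summed level of 14 lung epithelium markers was 13.6 to 14.4 in control, 14.7 to 15.5 in acute and 13.7 to 13.9 in resolution arrays. Acute arrays were thus the ones with most epithelial signal, and 4 of 11 tested epithelial genes rose there, beside 0.189% of all genes. In resolution arrays 0 of 11 rose and 4 fell against control, and 0 rose and 7 fell against acute. The mean log2 level of the list was 7.59 to 8.01 in control, 8.55 to 9.09 in acute and 7.02 to 7.40 in resolution arrays. Resolution thus lay below both other groups, though 3 of the 11 tested epithelial genes had a positive difference from control. Nlrp3 and Il1rn were also lowest in resolution arrays, with acute differences from control of 0.07 and 0.01. The summed level of 17 immediate early and stress genes, which respond to the handling of cells, was 17.4 to 17.8 in control, 17.4 to 17.8 in acute and 17.8 to 18.1 in resolution arrays. The brightest gene of this sum, Dusp1, had means of 16.88 in control, 16.90 in acute and 16.94 in resolution arrays. The mean log2 level of the list set the resolution arrays apart. It was 9.35 to 9.60 in control, 9.45 to 9.76 in acute and 10.14 to 10.35 in resolution arrays. In resolution against control, 9 of the 16 tested rose and 2 fell. Beside this and the other marker counts of that comparison, 9.60% of all genes were called higher and 9.0% lower.

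Of the interstitial macrophage markers, 10 on the array, the summed level was 15.62 to 15.99 in control, 16.39 to 16.62 in acute and 15.70 to 15.98 in resolution arrays. This sum followed its brightest gene, H2-Eb1, whose mean was 15.81 in control, 16.47 in acute and 15.83 in resolution arrays. The mean log2 level of the list was 6.34 to 6.56 in control, 6.88 to 7.03 in acute and 6.66 to 6.78 in resolution arrays. C1qa, a complement gene, was above control in both CpG groups, as Il1b was. It was 3.68-fold higher in acute (1.88 ± 0.29, adjusted p = 0.0201) and 2.85-fold higher in resolution (1.51 ± 0.27, adjusted p = 0.00203). C1qa was the 1 of 7 tested that rose in acute, and in resolution against control 1 rose (C1qa) and 1 fell (Tmem119). Lyve1, Folr2, Cd163, Mgl2 and Cx3cr1 of that list were below background on all 11 arrays. Among 5 tested dendritic cell markers Batf3 rose in resolution against control (1.58 ± 0.25, adjusted p = 0.000905) and 0 fell. The median difference of the 5 was 0.005, with 3 of 5 positive. Against acute, 1 of the 5 rose and 2 fell. The markers Flt3, Xcr1, Zbtb46, Cd209a and Fscn1 were below background throughout. The summed level of the 9 dendritic markers on the array was 10.1 to 10.6 in control, 10.5 to 10.8 in acute and 10.5 to 10.8 in resolution arrays. The T cell gene Cd3d was above background on 3 of 3 acute arrays (6.23 to 6.91) and on no other array, with an acute difference of 0.80 ± 0.17 (adjusted p = 0.102). Cd4 was above background on 4 of 4 control, 2 of 3 acute and 3 of 4 resolution arrays. The remaining T cell markers Cd3e, Cd3g, Cd8a, Cd8b1 and Cd28 were below background on all 11 arrays. The summed level of the 7 T cell markers on the array was 7.89 to 8.18 in control, 8.12 to 8.91 in acute and 7.72 to 7.93 in resolution arrays. The part of these markers in the member differences was not tested.

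**Figure D5:**
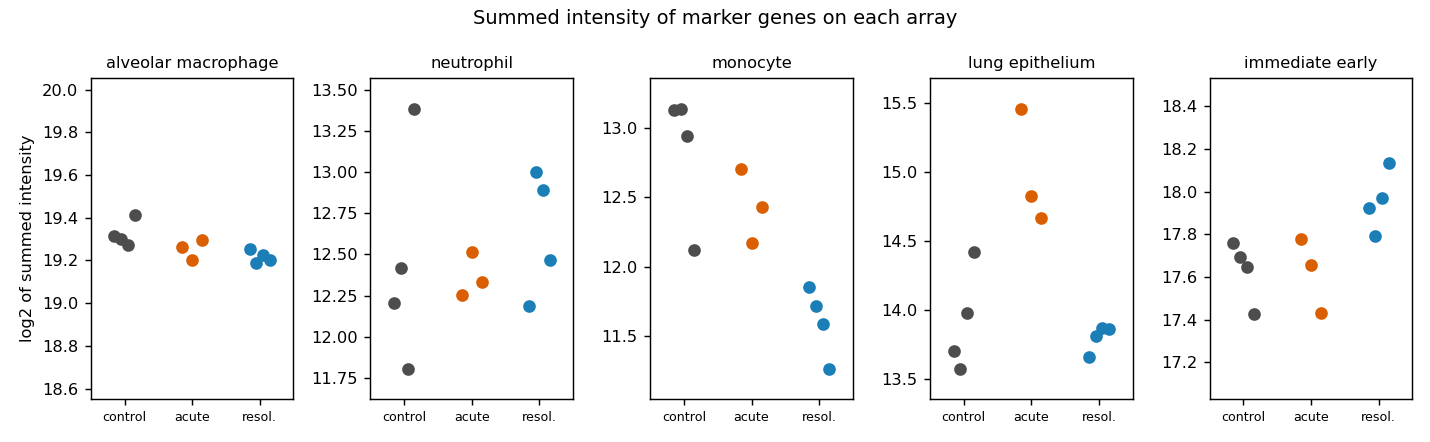
Summed intensity of 5 marker lists, as log2, on each of 11 arrays by group; each panel has its own axis range. Control replicate 4 is the highest point of the neutrophil panel at 13.4, and acute arrays are the highest of the epithelium panel at 14.7 to 15.5.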

How the data were processed

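RNA of alveolar macrophages from 11 mice was measured on 11 Affymetrix arrays, labelled with a 3' IVT Pico kit per the labels' protocols. The authors deposited linear intensities made with Affymetrix Expression Console, per the submitters' processing notes; its version, summary algorithm and annotation build were not given in the sources used here. Intensities were used as log2(value + 1) without further scaling, so a fold of a dim gene is understated. Genes are named by the platform table; where a symbol had several clusters, the one with the highest mean stood for it. Genes were tested where at least 3 of 11 arrays exceeded their own 40th percentile (12143 of 19505). The model, in limma 3.58.1 (R 4.3.3), had a mean for each of the 3 groups and used all 11 arrays together (8 residual and 4.48 prior degrees of freedom), two-sided, with Benjamini-Hochberg adjustment over all tested genes; it was tested on simulated data. Errors of differences are standard errors. Where a lower group did not exceed background by more than its SD, the fold is taken to background and given as at least. The number of arrays limits the precision.

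The members and the gene lists were chosen with earlier results of these data known. Named were the 9 members; per pathway list and comparison, up to 4 genes with the largest difference past the threshold, or the smallest p where none passed; the 3 genes nearest in profile to each changed member, leaving out unnamed gene models; and defining markers. Exceptions are marked in the text. Il1r1, Il18r1 and Gsdmd were added as known parts of the pathway. Of the arrays, 0 pairs held identical values.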

Additional observations from a re-analysis of the deposited data

Results flagged for a closer look

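Among the 18 sets of 4 arrays examined (9 genes in control and in resolution), 1 held an array far from the others: control replicate 2 of Il1rn, at 15.92 against 16.09, 16.12 and 16.09, with a gap of 0.862 of the group's range. Chance flags about 1 in 20 such sets.

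The CpG groups of day 30 and day 10 differed from each other for Il1rn, by -0.41 (log2, lower in 4 of 4 resolution arrays), and for Nlrp3, by -1.02 (lower in 4 of 4), in limma's test of resolution against acute arrays. The call of Il1rn held in 17 of 21 alternative settings and that of Nlrp3 in 21 of 21.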

How the results depend on the processing

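Each result was recomputed under 21 alternatives (pseudocount, filter, scaling, replicate block, groups in the fit, variance model, array weights, each array left out). Of 567 member differences, 534 kept direction and side of the threshold, 18 reversed, 11 came to pass and 4 no longer passed. Il1b, Il1f9, Il1rn and Nlrp3 in resolution against control, and Nlrp3 against acute, passed in 21 of 21; Il1rn against acute passed in 17. The member count in acute against control, 0, was 1 (Il1f9) with eBayes trend (adjusted p = 0.0185) and with array weights (0.0241), and 0 to 1 with an array left out. The count in resolution against acute, 2, was 1 with the replicate block (Il1rn -0.42, adjusted p = 0.0529), 1 to 2 with an array left out and 3 at most: Il18 passed with eBayes trend (0.20, adjusted p = 0.0229) and Il18bp with quantile normalization (-0.69, adjusted p = 0.0392). Pathway counts were 0 in every acute setting, 23 to 30 in resolution against control and 20 to 29 against acute. Reversed signs were all of differences that had not passed. In acute against control, Il1r2 was -0.033 with the replicate block and -0.022 with array weights, and Nlrp3 was -0.011 with array weights. With an array left out, acute against control ranged from -0.085 to 0.32 for Il18bp, -0.083 to 0.10 for Il1a, -0.079 to 0.19 for Il1r2, -0.037 to 0.041 for Il1rn and -0.096 to 0.21 for Nlrp3; Il1a in resolution against control ranged from -0.22 to 0.012, and Il1b in resolution against acute from -0.22 to 0.059. The cause was not tested. Genes called in acute against control, 29, were 51 with eBayes trend, 54 with array weights and 16 with the compared groups alone.

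Replicate numbers do not pair the samples: over 10 same-number pairs the correlation of deviations was -0.124 to 0.0872, with 0 over 0.1. With the replicate block, genes called went from 29 to 25, 2259 to 2120 and 1755 to 1455 in acute against control, resolution against control and resolution against acute. The mean of several clusters was not run, since each member has 1 cluster. Signal over background limits Il1f9, above background on 2 of 4 resolution arrays.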
